A study of Salvia miltiorrhiza with 5 samples.

Results

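Leaf and flower, the lateral organs that a shoot of *Salvia miltiorrhiza* bears, were compared in their microRNAs (miRNAs). The comparison used the leaf library and the flower library only, with 1 library per tissue, so no sequencing value below has a replicate library and every interval covers counting error alone. The paper also measured some of these miRNAs by RT-qPCR and describes the qualitative results as matching its sequencing. Those RT-qPCR values were not used here. Both organs came from field-grown plants, collected at the flowering stage after 8 months of cultivation. The labels give no genotype other than the species, no treatment, and no number of plants behind a library. Reads were summed for each distinct miRNA sequence and for each miRNA family, the group of miRNAs that share a family number. A sequence or family entered the comparison with at least 10 reads in leaf and flower together, which 71 of the 241 sequences and 36 of the 71 families in the table reached. Of these 71 sequences, 9 had no family, being miRNAs that the authors predicted from expressed sequence tags (ESTs) of this sage, whose names begin with PC. No miRNA in the table is a defining marker of a leaf or a flower, so the tissue labels were not checked against markers.

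A plant miRNA is cut as a duplex from the stem of a hairpin transcript, and the strand that an ARGONAUTE protein keeps guides the cleavage or the translational block of messages with a nearly complementary site. The targets of the old families are mostly transcription factors and hormone receptors that shape leaves, meristems and floral organs, or enzymes and transporters for nutrients such as copper, phosphate and sulfate. Leaf and flower are thought to share a common organ plan, and several of these families are known in *Arabidopsis* for setting organ boundaries, organ size and the passage from leaf to flower production. The roles given below come from *Arabidopsis* and other model plants, not from sage.

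The sequences on which the comparison turned are shown first, written 5′ to 3′ as DNA letters, with the seed (bases 2 to 8) in capitals. The first set holds the 5 sequences called higher in leaf under every scaling of the libraries that was tried. No seed is shared within this set.
nta-miR172d: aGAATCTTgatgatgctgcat
mtr-miR396b-3p_L-1_1ss12CT: tTCAATAAagttgtgggaag
hbr-miR6173_L+1: tAGCCGTAaacgatggatact
lus-miR159b_R+1_1ss19CT: tTTGGATTgaagggagctttct
mdm-miR156a_L+3_1ss22AC: aGTTGACAgaagagagtgagccc

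The second set holds sequences called higher in flower under every scaling, with 1 sequence each of miR390, miR171, miR319, miR164, miR399, miR172 and miR156 and both lengths of miR393, which share the seed CCAAAGG.
cpa-miR390a: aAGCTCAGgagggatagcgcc
osa-miR171b: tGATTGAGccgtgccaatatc
vvi-miR319b_R-1: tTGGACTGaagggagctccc
csi-miR164: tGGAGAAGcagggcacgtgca
gma-miR393a_R+1_1ss21CT: tCCAAAGGgatcgcattgattt
gma-miR393a_1ss21CT: tCCAAAGGgatcgcattgatt
mtr-miR399k_1ss13TA: tGCCAAAGaagaattgccctg
tcc-miR172d_1ss1AT: tGAATCCTgatgatgctgcat
lus-miR156b_1ss12TG: tTGACAGAagagagagagcac

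The third set holds the most abundant sequences of miR166, miR159, miR167, miR396 and miR156, against which the others are read. The pair of miR396 sequences share the seed TCCACAG and differ only at the last base (T21G, counted from 1 at the 5′ end, the base of the more abundant sequence first).
bdi-miR166a-3p: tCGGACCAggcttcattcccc
ath-miR159a_R-1: tTTGGATTgaagggagctct
dpr-miR167a: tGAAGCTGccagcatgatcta
csi-miR396a_1ss21GT: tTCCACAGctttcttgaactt
gma-miR396a-5p: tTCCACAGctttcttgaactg
lus-miR156a: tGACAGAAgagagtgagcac
rco-miR156f: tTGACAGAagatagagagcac

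The leaf library held 238148 reads in the miRNA table, against 494824 in the flower library. One miR166 sequence made up 79.5% of these reads in leaf (95% exact binomial interval 79.4 to 79.7%) and 90.7% in flower (90.6 to 90.8%). Without it the libraries were of similar depth, with 48725 reads in leaf and 45910 reads in flower. The authors multiplied the reads of each library by a single factor, 1.90 for leaf and 1.41 for flower, and these normalized counts are the scale of every level and ratio below unless another is named. Because the miRNA share of the library also differed, at 4.43% of the clean reads in leaf and 12.2% in flower, the scaling moves every log2 ratio by a common shift. Against the normalized counts the shift was 0.62 towards leaf on shares of the table reads, 0.35 towards leaf by the median of ratios, 0.52 towards flower on shares without the miR166 sequence, and 0.84 towards flower in RPM (reads scaled to all clean reads of the library). Each family call is therefore given with the number of these 5 scalings under which it was made. Reads that matched several entries of the table had been divided among them, so that a sum need not be whole.

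A sequence was called higher in an organ when its normalized counts were at least 2 times apart and the 95% exact binomial interval of the ratio lay on the same side of 1. By this rule 13 of 71 sequences (18.3%) were higher in leaf and 24 of 71 (33.8%) were higher in flower, and 34 were called in neither direction. The median log2 ratio of leaf over flower was -0.46 over the 71 sequences and -0.42 over the 36 families. The split depended on the scaling, since shares of the table reads gave 23 sequences higher in leaf and 15 in flower, and RPM gave 5 in leaf and 39 in flower. Under all 5 scalings, 5 of the 13 leaf calls and 15 of the 24 flower calls were made. As to direction alone, 19 sequences were higher in leaf and 35 higher in flower under every scaling, and 17 changed direction with it. Of the 31 sequences compared with fewer than 50 reads, 16 were uncalled, and at that depth a difference of 2 times can lie within the counting interval.

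**Figure D1:**
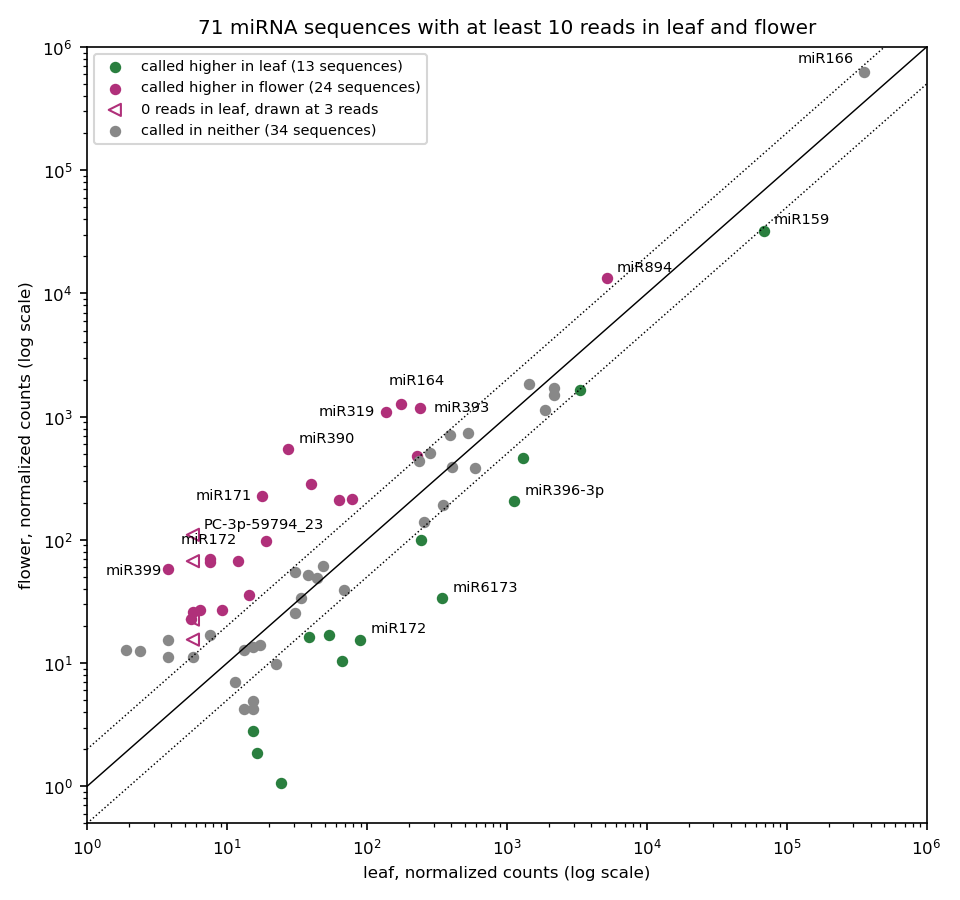
Normalized counts of the 71 sequences in leaf (horizontal axis) and flower (vertical axis), both on log scales, each point a sequence measured in 1 library per tissue. The solid line marks equal counts and the dotted lines a difference of 2 times. The 24 sequences called higher in flower lie above the upper dotted line, the 13 called higher in leaf lie below the lower one, and open triangles are sequences with 0 reads in leaf drawn at the level of 3 reads.

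Calls among the auxin families went in both directions. Of the 4 families compared, miR167 was higher in leaf, miR390 and miR393 were higher in flower, and miR160 was called in neither, with a median log2 ratio of -0.67 against -0.42 over all 36 families. The background over the 36 families was 16.7% called higher in leaf and 33.3% higher in flower, and the 4 auxin families are too few to be set apart from it. MiR390, which triggers the trans-acting siRNAs that restrain the auxin response factors ARF3 and ARF4, showed the widest gap of the 36 families. It had 27.3 normalized counts in leaf and 556 in flower, 20.4 times higher in flower (12.3 to 38.5), and was called under 5 of 5 scalings. Nearly all of this was the sequence cpa-miR390a, with 14.3 reads in leaf and 386 reads in flower. MiR393, which cleaves the messages of the TIR1 and AFB auxin receptors, had 280.5 normalized counts in leaf and 1460 in flower, a level 5.20 times higher in flower (4.36 to 6.20) under 5 of 5 scalings. The 22-nt sequence gma-miR393a_R+1_1ss21CT had 238 normalized counts in leaf and 1173 in flower, and the 21-nt sequence gma-miR393a_1ss21CT, which is its first 21 bases, had 39.9 in leaf and 285 in flower. Both lengths were higher in flower under every scaling, and their ratios did not differ by the rule used for pairs below.

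MiR167, which cleaves ARF6 and ARF8, known for stamen and ovule development, stood in the other direction. It had 3360 normalized counts in leaf and 1642 in flower, 2.05 times higher in leaf (1.90 to 2.20), a value just past the threshold and called under 3 of 5 scalings, although its ratio was above 1 in all 5. MiR160, which targets ARF10, ARF16 and ARF17, had 8 reads in leaf and 3.5 in flower, a ratio of 3.09 with an interval of 0.723 to 12.3 that its depth could not narrow.

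The families of leaf, meristem and organ growth were mostly higher in flower. Of 8 compared, 5 were higher in flower (miR164, miR169, miR171, miR319 and miR394), only miR159 was higher in leaf, and miR166 and miR396 were called in neither. The median log2 ratio of these families was -1.56, against -0.42 over all 36, of which 16.7% were called higher in leaf and 33.3% in flower. MiR164, which limits the CUP-SHAPED COTYLEDON factors of organ boundaries and other NAC factors, had 185 normalized counts in leaf and 1363 in flower, 7.35 times higher in flower (5.94 to 9.10). MiR319, which restrains TCP factors of leaf growth and of petals and stamens, had 143 in leaf and 1101 in flower, 7.705 times higher in flower (6.09 to 9.93). MiR171, which targets the HAIRY MERISTEM factors that maintain shoot meristems, had 25.4 in leaf and 237 in flower, 9.34 times higher in flower (5.45 to 18.4). All 3 were called under 5 of 5 scalings, and each rested on 1 dominant sequence among those printed above. Within miR171 the sequence osa-miR171b gave 9.33 reads in leaf and 161 reads in flower, while lus-miR171h_L-1R+1 had 4 reads in leaf and 0 in flower, too few to compare.

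MiR394, which targets the F-box gene LEAF CURLING RESPONSIVENESS, had 78.0 normalized counts in leaf and 213 in flower, and was 2.73 times higher in flower (1.92 to 3.95) under 4 of 5 scalings. MiR169, which targets NF-YA subunits, was sparse, with 6 reads in leaf and 25.9 in flower, and its ratio of 3.20 in favour of flower (1.29 to 9.54) was called under 4 of 5 scalings. The highest level of any family belonged to miR166, which limits the HD-ZIP III factors that give an organ its upper side. It had 360545 normalized counts in leaf and 633162 in flower, 1.76 times higher in flower (1.75 to 1.77), below the 2 times asked for, and it was called higher in flower under 2 of 5 scalings.

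MiR159, which represses the GAMYB-like factors of anthers and seeds, was the second most abundant family. It had 68562 normalized counts in leaf and 32348 in flower, 2.12 times higher in leaf (2.09 to 2.15), and was called under 3 of 5 scalings. The main sequence ath-miR159a_R-1 made up 15.1% of the table reads in leaf (14.96 to 15.3%) and 4.63% in flower (4.57 to 4.69%). The gap was small in RPM, with 6689 in leaf and 5632 in flower. MiR396, which limits the GROWTH-REGULATING FACTORS of cell proliferation in young leaves, had 4653 normalized counts in leaf and 2413 in flower. Its ratio of 1.93 in favour of leaf (1.81 to 2.05) missed the threshold, and it was called higher in leaf under 2 of 5 scalings. Of its 4 sequences compared, 3 were called higher in leaf, but only mtr-miR396b-3p_L-1_1ss12CT under all 5 scalings, as given below.

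MiR156, miR172 and miR529, the families of phase change and flowering, did not separate leaf from flower as family sums, apart from the sparse miR529. Of the 3, 1 was higher in leaf and none in flower, with a median log2 ratio of 0.19. Over all 36 families the shares were 16.7% in leaf and 33.3% in flower, with a median of -0.42. MiR156, which holds back the SPL factors of the adult phase, had 1077 normalized counts in leaf and 1181 in flower, a level 1.10 times higher in flower with an interval of 0.985 to 1.22. MiR172, which represses APETALA2 and related factors and so acts in floral organ identity, had 97.0 in leaf and 85.0 in flower, with a ratio of 1.14 (0.774 to 1.70). Neither was called under any of the 5 scalings. MiR529, which shares SPL targets with miR156 in some plants, had 11 reads in leaf and 2 reads in flower, and its ratio of 7.42 in favour of leaf (1.62 to 68.9) was called under 4 of 5 scalings. Its most abundant sequence, with 8 reads in leaf and 1 in flower, stood just under the minimum of 10 reads for single sequences.

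The 3 copper families had a median log2 ratio of 0.39, against -0.42 over all 36 families, and only miR408 was called. MiR408, which targets plantacyanin and laccase messages, had 246 normalized counts in leaf and 100.4 in flower, 2.45 times higher in leaf (1.82 to 3.32) under 3 of 5 scalings. MiR398, which targets copper/zinc superoxide dismutases, had 102 in leaf and 78.0 in flower, with a ratio of 1.31 (0.893 to 1.97), and miR397, which targets laccases, had 4 reads in leaf and 12 in flower. Of the 3 phosphate and sulfate families compared, 1 was called in each direction and 1 was uncalled, the leaf call resting on 10 reads. These 3 are too few to be set apart from the shares over all 36 families. MiR399, which removes the PHO2 message and so raises phosphate uptake, had 13.2 normalized counts in leaf and 93.1 in flower, 7.05 times higher in flower (3.21 to 18.1) under 5 of 5 scalings. MiR395, which targets ATP sulfurylases and a sulfate transporter, had 8 reads in leaf and 2 in flower, 5.40 times higher in leaf (1.08 to 52.2) under 3 of 5 scalings. MiR827, which targets SPX-domain genes in phosphate supply, had 20 reads in leaf and 37 in flower and was uncalled at a ratio of 1.37 in favour of flower (0.775 to 2.49).

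The families that act on the small RNA machinery itself were closer together. MiR168, which targets AGO1, had 2134 normalized counts in leaf and 1276 in flower, and miR403, which targets AGO2, had 2158 in leaf and 1489 in flower. Their ratios of 1.67 (1.53 to 1.83) and 1.45 (1.33 to 1.58) in favour of leaf were under 2. MiR168 was called higher in leaf under 2 of 5 scalings and miR403 under 1, whereas in RPM both families were slightly higher in flower. MiR858, which targets MYB factors of phenylpropanoid metabolism, had 36 reads in leaf and 28 in flower and was uncalled at 1.74 (1.03 to 2.95). It was called higher in leaf under 2 of 5 scalings. MiR482, which targets disease resistance genes of the NBS-LRR class, had 3 reads in leaf and 12 in flower and was also uncalled. It was called higher in flower under 2 of 5 scalings.

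The 10 families named from few plant species were compared, of which 1 was higher in leaf, 4 were higher in flower and 5 were uncalled, with a median log2 ratio of -0.73. Over all 36 families, 16.7% were called higher in leaf and 33.3% in flower, with a median of -0.42. These 10 are too few to be set apart from those shares. The widest leaf call among the 36 families was miR6173, with 344 normalized counts in leaf and 33.8 in flower. It was 10.2 times higher in leaf (6.63 to 16.3) and the only family called higher in leaf under all 5 scalings. In the other direction, miR3630 had 10 reads in leaf and 70 in flower, 5.19 times higher in flower (2.66 to 11.3), and miR5072 had 33 in leaf and 150 in flower, 3.37 times higher in flower (2.30 to 5.07), both under 5 of 5 scalings. MiR894 was the third most abundant family, with 5167 normalized counts in leaf and 13334 in flower, and was 2.58 times higher in flower (2.47 to 2.69) under 4 of 5 scalings. MiR6300 was 2.10 times higher in flower (1.70 to 2.62) under 3 of 5. The remaining families, miR477, miR1511, miR2916, miR5139 and miR6478, were uncalled, and miR1511 and miR5139 are names of the same sequence, whose reads were divided between them, with 279.5 reads in leaf and 520 in flower. Whether the reads under any of these 10 names, miR6173 and miR894 included, come from miRNA hairpins of sage was not tested.

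**Figure D2:**
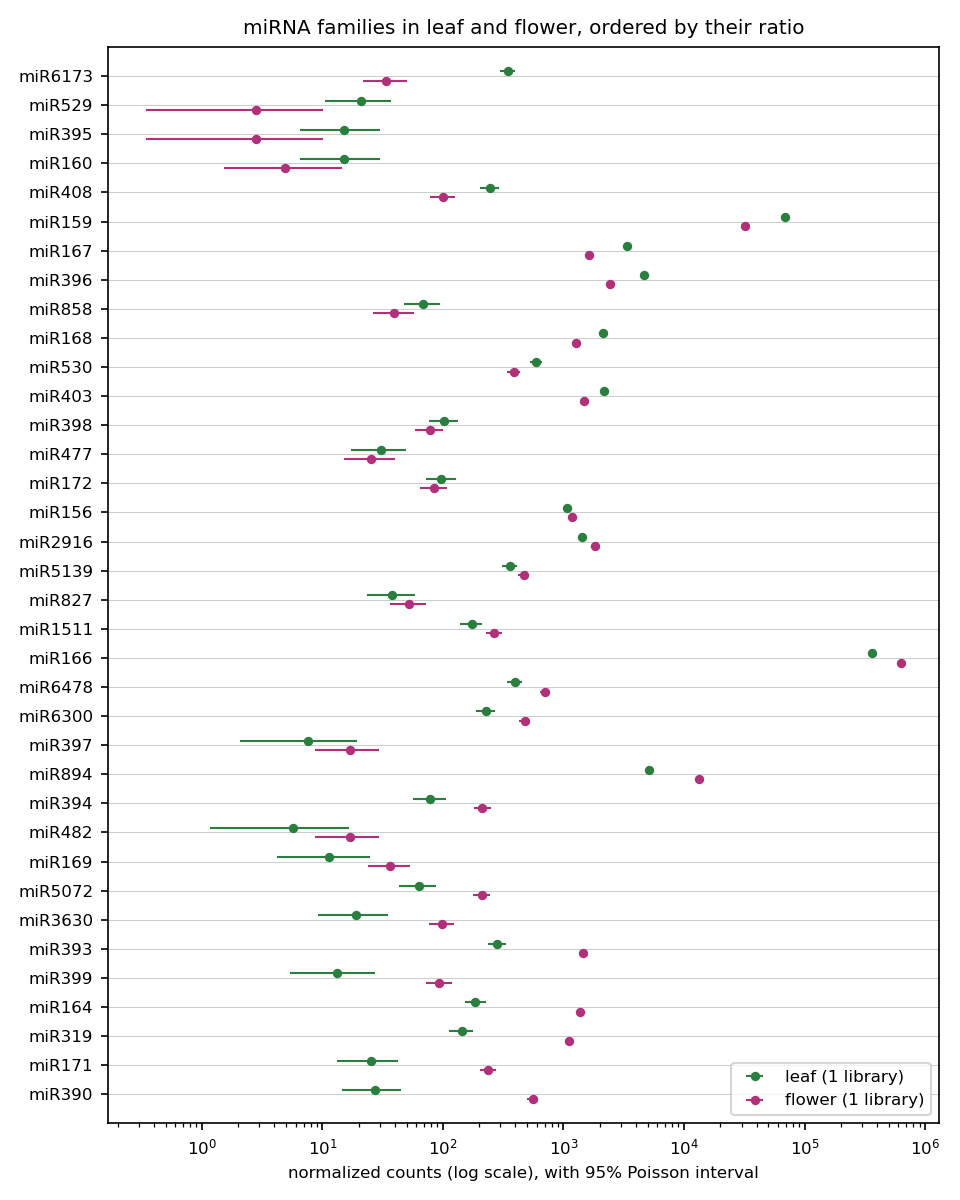
Normalized counts (log scale) of the 36 families in leaf (green) and flower (magenta), ordered by their ratio with the families highest in leaf at the top, bars giving the 95% Poisson interval of 1 library. MiR390, at the bottom, had 27.3 in leaf and 556 in flower, and miR6173, at the top, had 344 in leaf and 33.8 in flower.

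Across the 36 families, 8 were higher in leaf and 16 were higher in flower whichever scaling was used, and the direction of the other 12 depended on it. By the calling rule, 8 of the 12 families called higher in flower kept that call under all 5 scalings (miR164, miR171, miR319, miR390, miR393, miR399, miR3630 and miR5072), against 1 of the 6 called higher in leaf.

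**Figure D3:**
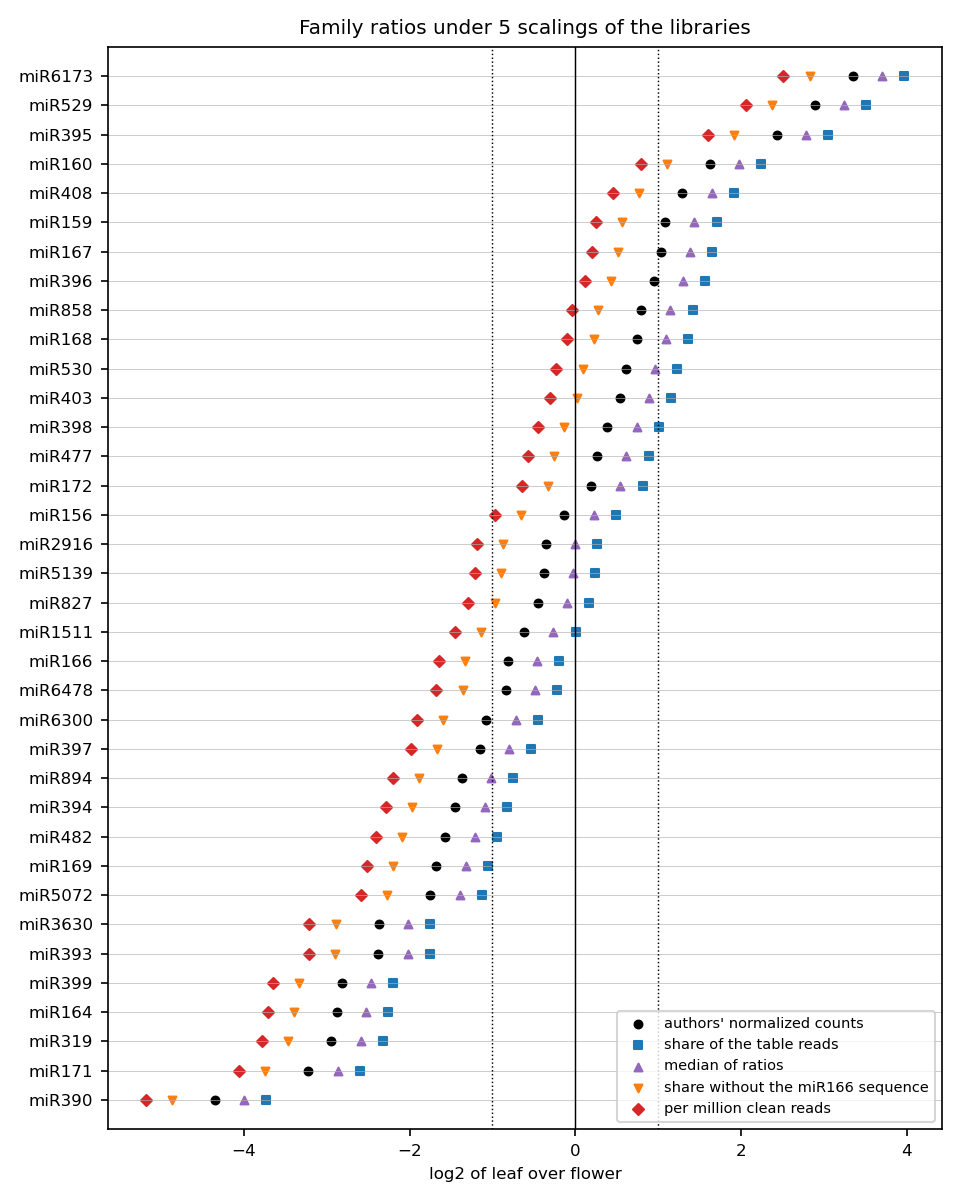
Log2 ratio of leaf over flower for the 36 families (rows) under 5 scalings of the libraries (symbols), with dotted lines at a difference of 2 times. Every family is shifted by the same amounts, so the order does not change, and miR169 and the 8 families called higher in flower under every scaling stay left of the lower dotted line throughout.

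Sequences of the same family could be compared with each other without any scaling, because the factor of a library cancels in the ratio of 2 ratios. In 10 families with at least 2 sequences of 10 or more reads, 28 pairs were formed, each of a sequence with the most abundant sequence of its family. In 5 pairs (17.9%) the other sequence leaned at least 2 times more towards leaf, and in 6 pairs (21.4%) at least 2 times more towards flower, with the 95% interval on that side of 1. These 11 pairs lay in 6 families, miR156, miR159, miR166, miR172, miR396 and miR398, whereas no pair was called in miR164, miR168, miR393 or miR399.

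Of the 28 pairs, only that of miR172 joined sequences called in opposite directions. The sequence nta-miR172d had 47 reads in leaf and 11 reads in flower, or 89.4 normalized counts in leaf and 15.5 in flower, 5.77 times higher in leaf (2.95 to 12.3). The sequence tcc-miR172d_1ss1AT had 0 reads in leaf and 47.7 in flower, 11.8-fold higher in flower when the 0 is read as 3 reads. A value of this kind is set by that floor. It leaves out the counting error of the flower reads and is not an interval limit. Both calls held under all 5 scalings. Set against each other, tcc-miR172d_1ss1AT leaned 67.9-fold more towards flower than nta-miR172d with the 0 read as 3 reads. The interval of this pair, with 0.5 added to each count, ran from 22.8-fold to 6945-fold. The sequences are of equal length and differ at 2 positions, A1T and T7C, counted from 1 at the 5′ end with the base of nta-miR172d first, and the second of these lies in the seed. The nearly equal miR172 sums in leaf and flower thus added up different sequences.

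The miR156 sum was likewise made of sequences that leaned different ways. Its most abundant sequence, lus-miR156a, had 407 normalized counts in leaf and 392 in flower. The sequence lus-miR156b_1ss12TG had 4 reads in leaf and 46.5 in flower, 8.61 times higher in flower (3.11 to 32.6), and leaned 8.03 times more towards flower than lus-miR156a (3.003 to 21.5). It shares the seed TGACAGA with bdi-miR156b-5p_L+1_1ss20AC, which had 348 normalized counts in leaf and 192 in flower, and from which it differs by T15A and C20A, the base of the bdi sequence first. It also shares that seed with rco-miR156f, which had 234 in leaf and 440 in flower, and from which it differs by T12G. The 3 sequences of 1 seed thus spanned log2 ratios of -3.11 to 0.86. A longer form, mdm-miR156a_L+3_1ss22AC, which holds the bdi sequence from its base 3 on, had 12.8 reads in leaf and 0.75 in flower and leaned 13.8 times more towards leaf than lus-miR156a (2.18 to 87.0). It was called higher in leaf, and lus-miR156b_1ss12TG higher in flower, under all 5 scalings.

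In miR396 all 3 other sequences were called higher in leaf, and 2 of them also differed from the main one by the rule for pairs. The main sequence, csi-miR396a_1ss21GT, had 2179 normalized counts in leaf and 1722 in flower and was uncalled. The sequence gma-miR396a-5p, which differs by the last base only, had 1301 in leaf and 462 in flower, 2.82 times higher in leaf (2.46 to 3.22), and leaned 2.22 times more towards leaf (1.91 to 2.60). Its log2 ratio was 0.66 in RPM and 0.98 without the miR166 sequence, short of a call under both. The 3p sequence mtr-miR396b-3p_L-1_1ss12CT had 1124 in leaf and 206 in flower, 5.47 times higher in leaf (4.55 to 6.59), under 5 of 5 scalings. It leaned 4.31 times more towards leaf than the main sequence (3.53 to 5.25). The third, csi-miR396c_1ss10TG, had 20.2 reads in leaf and 11.5 in flower, 2.37 times higher in leaf (1.05 to 5.05), and its pair was uncalled. It too fell below 2 times in RPM and without the miR166 sequence. In miR398, ppe-miR398b_R-1_1ss2GA had 28 reads in leaf and 12 in flower, against 25.7 in leaf and 43.3 in flower for the main sequence aqc-miR398b_L+2R-2, a difference of 3.82 times towards leaf (1.68 to 8.69).

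The miR159 sequences that share the seed TTGGATT with the main one extend past its 3′ end, in part with changed last bases. Of these, lus-miR159b_R+1_1ss19CT had 34.7 reads in leaf and 7.33 in flower and leaned 2.86 times more towards leaf than ath-miR159a_R-1 (1.32 to 6.20). The form gma-miR159a-3p_R+2, the main sequence with 3 more bases, had 17.9 reads in leaf and 23.8 in flower and leaned 2.08 times more towards flower (1.13 to 3.81). The last called pair of this family is a matter of its name. The sequence listed as ptc-miR159d_L-1R-1_1ss7TC, with 1.25 reads in leaf and 8.92 in flower, is the first 19 bases of vvi-miR319b_R-1, which had 136 normalized counts in leaf and 1100.2 in flower. In miR166, ptc-miR166p_L+2R-2 had 6.33 reads in leaf and 47.7 in flower, and leaned 2.97 times more towards flower than the main sequence (1.34 to 6.63).

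**Figure D4:**
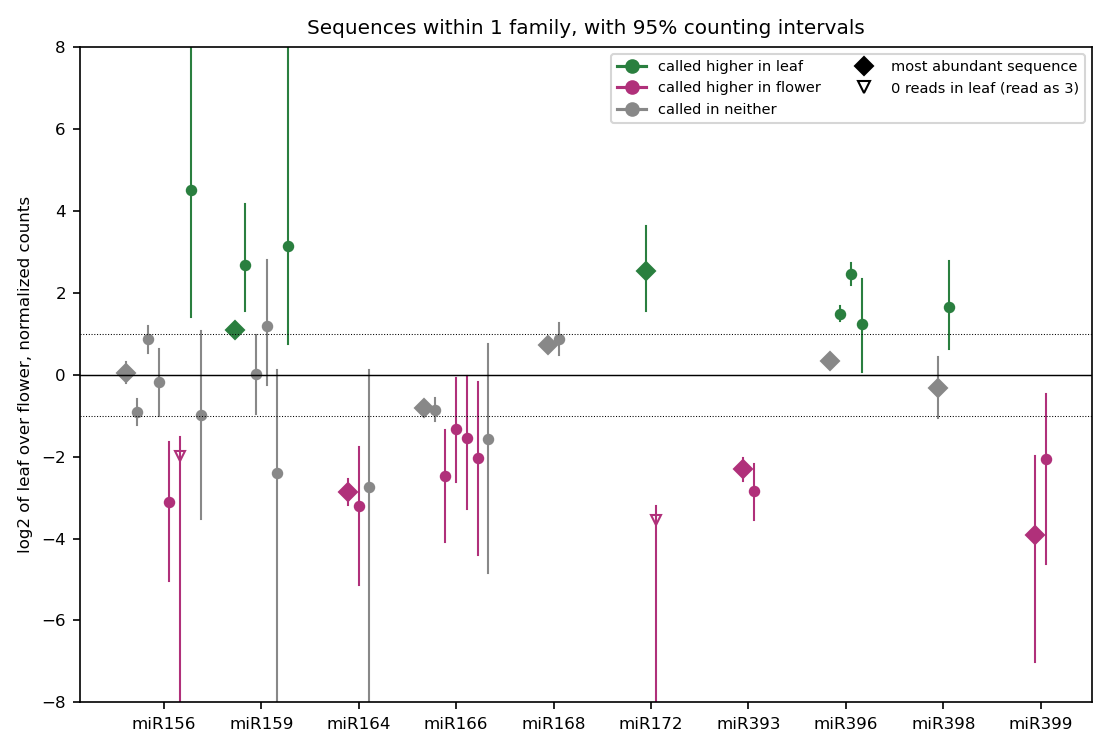
Log2 ratio of leaf over flower, in normalized counts, of each sequence in the 10 families with at least 2 sequences of 10 or more reads, with 95% counting intervals drawn as far as the axis reaches. Diamonds are the most abundant sequence of a family, green and magenta mark sequences called higher in leaf and in flower, grey marks those called in neither, and open triangles are sequences with 0 reads in leaf, read as 3 reads. The miR172 sequences lie at 2.53 and -3.56, and the miR156 sequences run from -3.11 to 4.52. The miR164, miR166, miR393 and miR399 sequences all lie below 0.

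The opposite arms of a hairpin could be followed where the table lists a 5p and a 3p sequence on 1 precursor. The precursors of the miR166, miR168, miR164, miR396 and miR156 pairs given here belong to other species, so it is not known that both arms came from the same sage hairpin. The miR166 arms kept nearly the same balance, with 1280 reads of the 3p sequence per 5p read in leaf and 1247 in flower. The 5p sequence of miR168 had 7.30 reads per 3p read in leaf and 8.10 in flower, and the 5p sequence of miR164 had 23 per 3p read in leaf and 17.98 in flower. In none of these 3 did the balance differ beyond counting error, the ratio of the balances in leaf over flower having intervals of 0.806 to 1.18 for miR166 (5p per 3p, as for the others), 0.686 to 1.19 for miR168 and 0.430 to 3.10 for miR164. The miR396 arms differed, with 0.516 reads of the 3p sequence per 5p read in leaf and 0.119 in flower, the gap of 4.31 times given above. The miR156 arms bdi-miR156b-5p_L+1_1ss20AC and bdi-miR156d-3p_3ss7TC8G-13GC also differed, with 7.96 reads of the 5p sequence per 3p read in leaf and 3.89 in flower, a gap of 2.03 times (1.15 to 3.58).

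A miR156 hairpin from a sage EST carries both lus-miR156b_1ss12TG, matched to the 5′ arm with 1 mismatch, and stu-miR156d-3p_R-1_2ss1GA10GA on the 3′ arm. It is printed because both of its listed sequences were called higher in flower under all 5 scalings. Capitals mark the arms, and the 5′ arm of the EST itself reads as rco-miR156f.
miR156 hairpin of the EST: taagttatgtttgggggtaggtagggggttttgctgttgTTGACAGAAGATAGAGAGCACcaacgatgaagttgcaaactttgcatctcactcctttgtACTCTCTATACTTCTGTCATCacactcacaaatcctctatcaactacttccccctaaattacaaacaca
The 3′ arm sequence had 0 reads in leaf and 16 in flower, 3.95-fold higher in flower with the 0 read as 3 reads. The sequence rco-miR156f, identical to the 5′ arm of the EST, had 123 reads in leaf and 312 in flower and was uncalled at 1.88 times higher in flower (1.52 to 2.33), passing the threshold under 2 of 5 scalings.

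Of the 40 predicted miRNA names, 8 reached 10 reads in leaf and flower together, and 7 had no read in either. Counted by sequence 9 were compared, since PC-3p-72144_18 reached the minimum only when the reads listed under both of its names were added. All 40 together had 83 reads in leaf and 222 in flower. Much of that difference was a single sequence, PC-3p-59794_23, with 0 reads in leaf and 78 in flower. At 110 normalized counts in flower it was 19.3-fold higher in flower with the 0 read as 3 reads, and was called under 5 of 5 scalings. Its partner on the other arm, PC-5p-376893_3, had 0 reads in leaf and 11 in flower. It was 2.72-fold higher in flower with the 0 read as 3 reads, and was called under 4 of 5 scalings. The pair is the clearest case of both listed sequences of 1 predicted sage hairpin read in flower and not in leaf. Its 239-nt predicted hairpin, from a sage EST, is printed with the stretches of both in capitals. Whether these stretches pair with each other was not tested.
Hairpin of PC-5p-376893_3 and PC-3p-59794_23: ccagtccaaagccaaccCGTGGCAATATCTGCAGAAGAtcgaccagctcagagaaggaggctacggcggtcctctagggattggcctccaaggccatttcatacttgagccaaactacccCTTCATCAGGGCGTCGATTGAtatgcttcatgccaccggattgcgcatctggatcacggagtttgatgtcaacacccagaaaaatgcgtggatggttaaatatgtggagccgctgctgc
PC-5p-376893_3: cGTGGCAAtatctgcagaaga
PC-3p-59794_23: cTTCATCCgggcgtcgattga
The 5p sequence matches the EST without a mismatch, whereas the 3p sequence differs from it at C8A, the base of the read first, counted from the 5′ end of the read. A further predicted pair, PC-5p-994633_2 and PC-3p-479939_3, had no read in leaf, and 5 and 6 reads in flower, below the minimum. The other predicted sequences compared were uncalled, among them PC-3p-240808_5 with 16 reads in leaf and 39 in flower, PC-3p-294250_4 with 9 in leaf and 10 in flower, PC-3p-115345_10 with 7 in leaf and 9 in flower, and PC-5p-92321_13 with 7 in leaf and 3 in flower.

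Reads in 1 organ alone were nearly always few. Of the 241 sequences in the table, 109 were read in both organs, 31 in leaf only, 48 in flower only and 53 in neither, and the median was 1 read for the leaf-only and for the flower-only sequences. No leaf-only sequence had more than 4 reads. Only 4 flower-only sequences had 10 or more, all of them described above: PC-3p-59794_23, tcc-miR172d_1ss1AT, stu-miR156d-3p_R-1_2ss1GA10GA and PC-5p-376893_3. At the threshold itself, ptc-miR166a_L+5R-2, cpa-miR395a_L+1, PC-5p-92321_13, lus-miR164a_R-1 and ath-miR159c_R+2_1ss20CT had 10 reads in both libraries together and entered. Just outside it at 9 reads stood bdi-miR529-5p, with 8 in leaf and 1 in flower, and aly-miR390a-3p_R-1, with 0 in leaf and 9 in flower.

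The libraries also differed in the length and the first base of their miRNA reads, features that neither the choice of organs nor the calling rule used. Reads of 20 nt made up 15.5% of the table reads in leaf (15.4 to 15.7%) and 4.94% in flower (4.88 to 5.002%), and reads of 21 nt made up 83.8% in leaf (83.6 to 83.9%) and 94.3% in flower (94.2 to 94.3%). These shares largely follow 2 sequences, the 20-nt ath-miR159a_R-1 and the 21-nt bdi-miR166a-3p. With the miR166 sequence left out, 20 nt made up 75.9% in leaf (75.5 to 76.3%) and 53.3% in flower (52.8 to 53.7%). Nearly all of this was ath-miR159a_R-1, which alone gave 73.8% in leaf and 49.9% in flower. A first base C was then found in 6.45% of the reads in leaf (6.23 to 6.67%) and 22.5% in flower (22.1 to 22.9%), of which ppt-miR894_R+1 alone gave 5.58% in leaf and 20.6% in flower. By sequence rather than by read, 21-nt sequences gave 6 of the leaf calls and 15 of the flower calls out of 38 compared. The 20-nt sequences gave 4 of the leaf calls and 4 of the flower calls out of 13. Over all 71 sequences, 18.3% were called higher in leaf and 33.8% in flower, and no difference by length was tested against these shares.

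The degradome, a library of cut messenger RNA ends, was made from mixed tissues, so a cut message cannot be assigned to leaf or flower. It lists pairs for 21 miRNA sequences of the table, of which 7 were in the comparison, 1 called higher in leaf and 3 higher in flower. The shares over all 71 sequences were 18.3% in leaf and 33.8% in flower, and these 7 are too few to be set apart from them. Among these 7, the miR858 sequence had the best-covered pairs, 5 transcripts with 33.4 reads each after the authors divided reads among matches, and category 0, the class in which the cut site is the highest point of the transcript. The pairs of the called sequences had best categories of 2 to 4. The flower-called csi-miR164 had 2 transcripts with 1.5 such reads each, han-miR3630-3p_L-2_1ss22TC had 4 transcripts with 4 each, and osa-miR5072_L-4_1ss13GA had 5 transcripts with up to 2.5. The leaf-called gma-miR396a-5p had 6 transcripts with 0.167 each. The smallest p-value that CleaveLand listed was 0.0700 for miR858, 0.388 for osa-miR5072_L-4_1ss13GA, 0.866 for gma-miR396a-5p, 0.931 for csi-miR164 and 0.988 for han-miR3630-3p_L-2_1ss22TC.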

How the data were processed

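Small RNA libraries of leaf and flower were sequenced on a HiSeq 2000 per the labels, and reads of 18 to 25 nt were matched by the authors to miRBase release 20 and sage ESTs with ACGT101-miR 4.2. The deposited miRNA table gives estimated counts, in which the authors divided reads among entries, and a normalized signal, the same counts multiplied by 1 factor per library. The deposited degradome table (CleaveLand 3.0, ACGT301-DGE 1.0) gives counts of raw reads, a divided signal, an alignment score (not used) and the p-value of CleaveLand, printed only as the authors' value. How the authors set the factors is not given in the sources used here. The table has 650 entries under 488 names, and 6 of its lines were not analysed here.

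Entries were summed by distinct sequence and by family number. Ratios have exact binomial (Clopper-Pearson) 95% intervals on counts rounded to whole numbers, and a count of 0 was read as 3 reads. Pair ratios within families, and between arms, have normal-approximation intervals with 0.5 added to each count. No test between organs was run. PCR reads without molecular identifiers are not independent molecules, so intervals and floors cover counting error only. The interval was tested on simulated data. Named items were the 10 most abundant sequences, the 10 widest calls in each direction, the families of the role lists, sequences with 0 reads in 1 organ, called pairs, the miRNAs measured by RT-qPCR in the study, and predicted miRNAs with at least 10 reads. A few sequences beside these (those near the minimum of reads and further members of miR171, miR393 and miR529, for example) were picked with their values in view and so fall outside that rule. The organs, lists and rule were chosen with earlier results of these data known. Alternatives were 4 other scalings, other minimums, folds and intervals, and names in place of sequences. Computations ran in Python 3.11.15 (pandas 2.3.3, scipy 1.17.1, numpy 2.4.6), with plots from matplotlib 3.10.9.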

Additional observations from a re-analysis of the deposited data

How the results depend on the processing

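The counts of calls depended first on the scaling. Sequences called higher in leaf numbered 13 on normalized counts, 23 on shares of the table reads, 5 in RPM over clean reads and 7 on shares without the miR166 sequence. Sequences called higher in flower numbered 24, 15 on shares of the table reads and 39 in RPM over clean reads. Families called higher in leaf numbered 6, 13 on shares of the table reads, 1 in RPM over clean reads and 2 without the miR166 sequence, and families called higher in flower numbered 12 and, in RPM over clean reads, 20. With a minimum of 50 reads, 7 sequences were higher in leaf and 15 in flower. A fold of 4 gave 7 sequences and 3 families higher in leaf and 7 families higher in flower, and a fold of 1.5 gave 10 families higher in leaf. Sequences whose sums were whole within 0.01 (38 of 71), an alternative added after the data were seen, gave 4 higher in leaf and 11 in flower. The fall in these counts follows in part from fewer sequences compared, and otherwise the cause was not tested. Families whose sequences differed numbered 6, and 3 with at least 50 reads for each sequence. All other counts stayed within 1.5 times, among them 11 and 20 sequences with a 99% interval. Of the 78 named log2 ratios, 41 left their counting interval in RPM over clean reads. None that was called changed direction with 0.5 reads added. A call needs a log2 ratio of at least 1 in size, and the largest shift between scalings was 0.84 towards flower. A called ratio therefore could not change direction under the 4 other scalings, so its direction is no check of the scaling. No paired analysis was possible because each organ has 1 library, and no library could be left out. Depth limits the families with fewer than about 50 reads, such as miR160, miR395 and miR529.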
